A study of Mus musculus with 6 samples.

Results

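The genes described here encode the core of the NF-κB pathway: 5 transcription factor subunits (Nfkb1, Nfkb2, Rel, Rela and Relb), 3 proteins of the kinase complex (Chuk, Ikbkb and Ikbkg) and 2 inhibitors (Nfkbia and Tnfaip3). They were chosen by gene symbol, with earlier results of these data known, and make up 10 of the 39174 genes in the expression tables. All 10 were among the 21285 genes that reached a mean of 0.1 FPKM in either genotype and were tested. FPKM are fragment numbers divided by the length of the transcript and the size of the library, so that levels can be set side by side between genes. Levels of the members in each nerve are given after the libraries were scaled to each other, unless called deposited.

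The study sequenced RNA of whole sciatic nerves from adult mice, stated by the authors to be 12 months old, and asked how the transcriptome of the nerve differs when Plekhg5 is missing. Plekhg5 encodes a guanine nucleotide exchange factor. The 3 wild-type nerves carry the numbers 2, 4 and 5 and the 3 Plekhg5-deficient nerves the numbers 2, 3 and 5, with no treatment in either group. The sources used here give neither the allele nor the genetic background and sex.

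NF-κB subunits act as dimers that are held in the cytoplasm by inhibitors of the IκB type, of which Nfkbia (IκBα) is the best known. In the canonical branch the kinase Ikbkb, bound to the scaffold Ikbkg (NEMO), marks IκBα for degradation and frees dimers of Nfkb1 with Rela or Rel. In the non-canonical branch Chuk triggers the processing of Nfkb2, which pairs with Relb. Nfkbia and Tnfaip3 (A20) are themselves transcribed in response to NF-κB and shut the signal off again, and Nfkb1, Nfkb2, Rel and Relb are also known target genes. In peripheral nerve, the pathway is known from Schwann cells, macrophages, endothelium and lymphocytes.

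Reference promoters of the members were searched for the letters of κB sites, the sequences that NF-κB dimers bind. RefSeq windows of the build GRCm38.p6, from 250 bases before to 50 bases after an annotated start, were found for 7 members in 13 windows (Tnfaip3, Rel, Nfkbia, Rela, Chuk, Nfkb2 and Ikbkg). The letters GGGNNTTTCC or GGGNNTTCCC, on either strand and with overlapping matches counted once per window, were present in 6 of these 13 windows and in 3.24% of all 32851 windows of the same length. The windows with a match belong to 4 genes, Nfkb2, Nfkbia, Rel and Tnfaip3, and the last Nfkb2 match falls in the windows of different starts. The forms were chosen after several had been tried, so the shares are a description and not a test of the members. A looser form, GGGNNNNNCC, was present in 50.8% of all windows and in at least one window of each of the 7 members. These are matches of letters in the reference sequence, and no binding was measured. The stretches that hold the matches are printed below in the direction of transcription, with the matched bases in capitals, because these 4 members are known as NF-κB targets themselves. The 100 bases before the start of Nfkbia lie at chr12:55492648-55492747 on the minus strand, and the match ends 19 bases before the start.
Nfkbia: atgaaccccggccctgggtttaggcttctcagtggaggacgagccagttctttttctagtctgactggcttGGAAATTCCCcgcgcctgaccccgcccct
The 100 bases before an annotated start of Tnfaip3 lie at chr10:19015411-19015510 on the minus strand, with a match that ends 2 bases before that start. This stretch lies within the locus used for the FPKM of Tnfaip3, which begins at 19015657 on this strand.
Tnfaip3: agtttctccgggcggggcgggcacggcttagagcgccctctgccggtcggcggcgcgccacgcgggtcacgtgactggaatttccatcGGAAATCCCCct
The site of Rel lies at chr11:23771042-23771070 on the minus strand, and its match ends 81 bases before the start.
Rel: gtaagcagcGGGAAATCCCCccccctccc
Nfkb2 had 3 sites on the plus strand, at chr19:46304688-46304717, chr19:46304717-46304745 and chr19:46305695-46305724. The first match ends 29 bases before an annotated start and the second ends directly at it, while the last begins at base 11 of the transcript from another start and ends 215 bases before a further one. All 3 matches overlap an annotated untranslated region.
Nfkb2, first site: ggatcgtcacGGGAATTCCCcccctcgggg
Nfkb2, second site: gggccgaaaGGGGCTTTCCCggctggagc
Nfkb2, last site: tggtattttcGGGACTTTCCtaagcagcac

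The libraries were first compared with their labels. Plekhg5 was at 3.65, 4.13 and 5.26 FPKM in wild-type libraries but at 0.141, 0.140 and 0.0521 in deficient ones, and it fell with a log2 fold change of -2.26 (SE 0.18, adjusted p = 0.0380 in limma, a call that was lost when any 1 nerve was left out). The markers of myelinating Schwann cells were abundant in all 6 nerves, with a summed level between 10678 and 19385 FPKM and none of the 10 markers at 0. Wild-type 5 stood apart by lymphocyte genes: the summed level of 13 T-cell markers was 140 FPKM there and between 4.40 and 10.8 FPKM in the other 5 nerves, and all 13 were more than 2-fold above every other library. All 10 B-cell markers behaved in the same way, with 142 FPKM in wild-type 5 and 2.86 to 7.32 FPKM elsewhere. Plekhg5-deficient 5 stood apart by haemoglobin, which took 16.0% of its FPKM against 0.507% to 2.56% in the others. It was also highest for 12 skeletal muscle markers, which summed to 49360 FPKM. These reached 18341 FPKM in wild-type 2 and 13030 FPKM in wild-type 5 as well, and between 279 and 2886 FPKM elsewhere. Because whole nerves were sequenced, fewer cells of a type and less RNA per cell cannot be told apart.

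None of the 10 NF-κB genes differed between the genotypes beyond the spread of the nerves. With limma, 0 of 10 passed an adjusted p of 0.05, where 0.0376% of all genes tested did, and 0 of 10 had an unadjusted p under 0.05, against 5.11% of all genes. For each of the 10, the range of the wild-type nerves overlapped that of the Plekhg5-deficient nerves, while the genotypes did not overlap for 11.6% of all genes. The estimates were small and mostly below 0. Of the log2 fold changes of Plekhg5-deficient over wild-type nerves, 8 were below 0, as were 48.9% of those of all genes, and 2 were above. Their median was -0.16, beside 0.0065 for all genes, and they ran from -0.44 for Relb to 0.23 for Chuk. The middle 95% of all genes tested lay between -0.71 and 0.61, so that each of the estimates was within the bulk of the transcriptome. The adjusted p-values of the members lay between 0.974 and 0.999. Nothing in the labels says how the animals were related. With 3 nerves a group the p-values rest on these nerves alone, and limma draws the variance of each gene toward that of genes at a similar level.

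**Figure D1:**
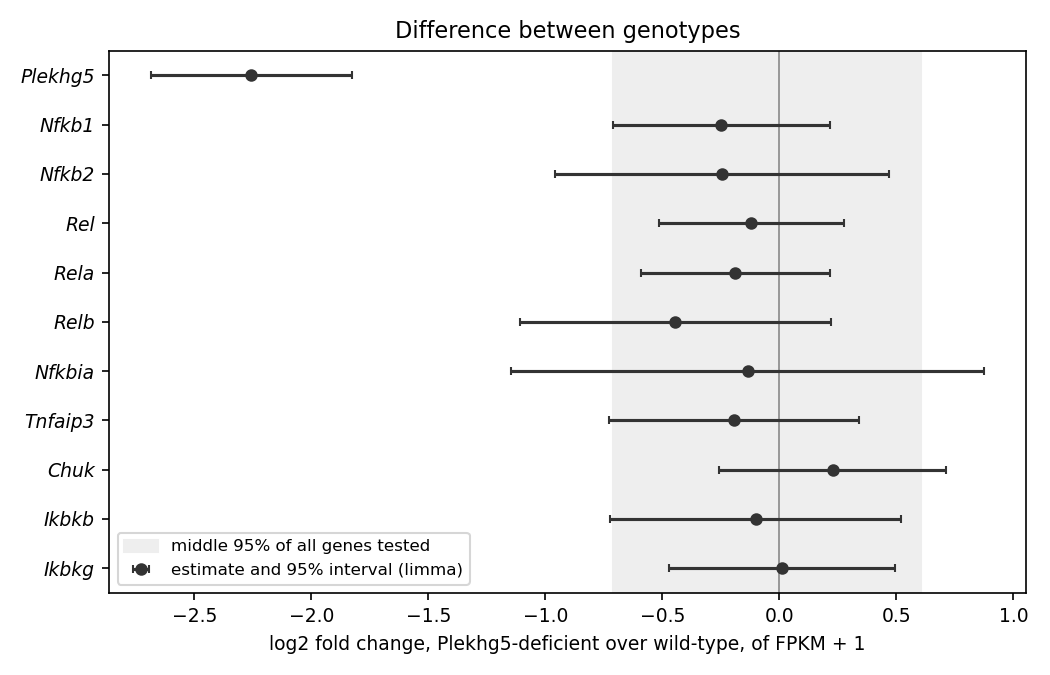
Log2 fold change of Plekhg5-deficient over wild-type nerves (x axis, on log2 of FPKM + 1) for Plekhg5 and the 10 NF-κB genes, with the 95% interval from limma as a bar and the middle 95% of all genes tested as a shaded band. The interval of Plekhg5 runs from -2.68 to -1.83, whereas the interval of each NF-κB gene includes 0, with that of Nfkbia the widest, from -1.15 to 0.88.

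The levels of the 10 genes covered a wide range and kept a similar order in each nerve. Nfkbia was the most abundant, with a mean of 38.6 FPKM over the 6 nerves, followed by Nfkb1 with 19.7 and Rela with 19.0 FPKM. The kinases Chuk and Ikbkb followed with 10.8 and 9.59 FPKM, and the scaffold Ikbkg with 4.98 FPKM. Nfkb2 and Relb, the pair of the non-canonical branch, were measured at 3.27 and 2.81 FPKM, Tnfaip3 at 2.003 FPKM and Rel at 0.674 FPKM. The ranges over the 6 nerves did not touch at 3 steps of this order, Rela above Chuk, Ikbkb above Ikbkg, and Tnfaip3 above Rel. The other neighbours overlapped. Nfkb1 was above Rela, Chuk above Ikbkb and Nfkb2 above Relb in only 4 of 6 nerves each, and Ikbkg was above Nfkb2 and Relb above Tnfaip3 in 5 of 6. Nfkbia was above Nfkb1 in 6 of 6, although the ranges of the genes overlapped.

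**Figure D2:**
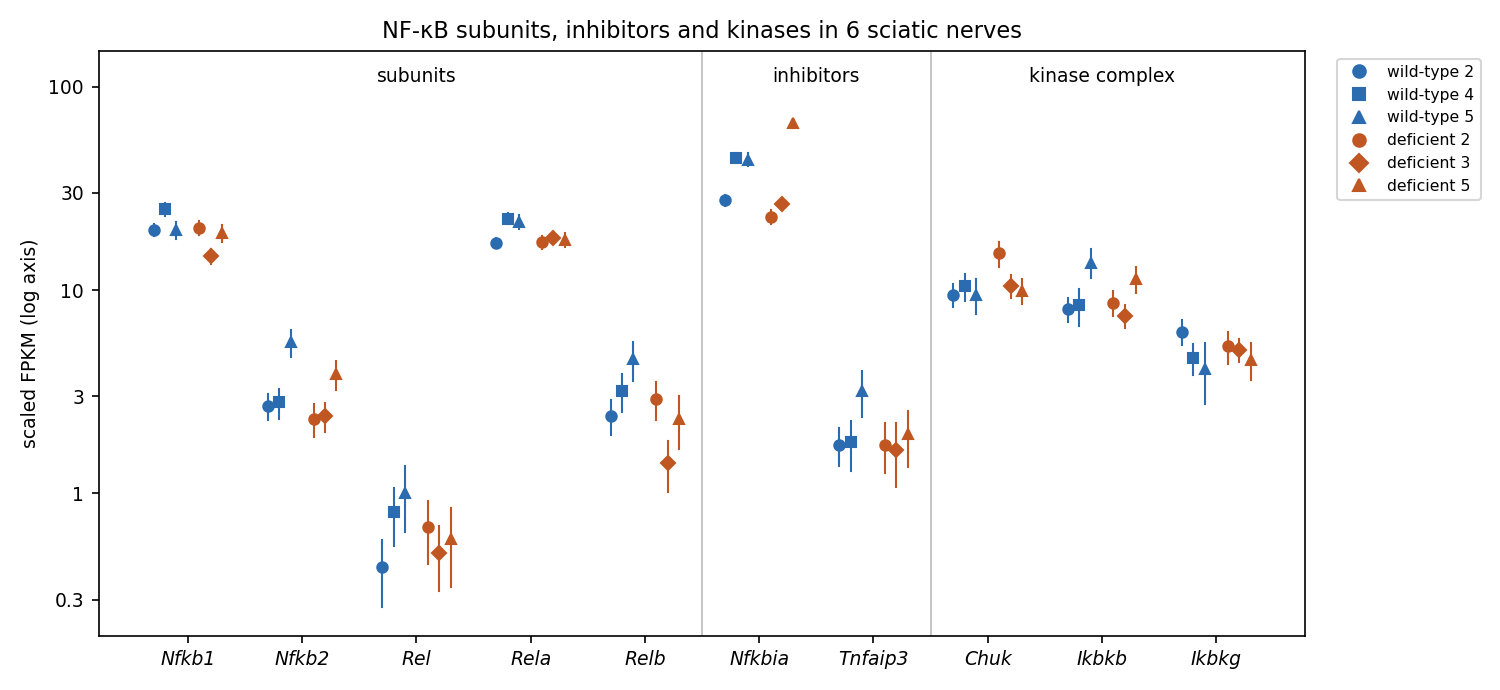
Scaled FPKM (y axis, logarithmic) of the 10 genes in each of the 6 nerves, grouped by role, with wild-type nerves in blue and Plekhg5-deficient nerves in orange and the 95% interval of Cufflinks as a bar, which covers the uncertainty of the estimate within a library only. The colours overlap for every gene, and Nfkbia in Plekhg5-deficient 5 (65.9 FPKM) and Nfkb2 in wild-type 5 (5.54 FPKM) stand above the other nerves. As deposited, Nfkbia in Plekhg5-deficient 5 was slightly below wild-type 4.

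Among the subunits of the canonical branch, Rela, which carries a transactivation domain, is encoded on chromosome 19 from 5637483 to 5648130 (GRCm38). Wild-type nerves 2, 4 and 5 gave 17.0, 22.5 and 21.6 FPKM, and Plekhg5-deficient nerves 2, 3 and 5 gave 17.2, 18.1 and 17.7 FPKM. Wild-type 4 and 5 were above all Plekhg5-deficient nerves, while wild-type 2 was the lowest nerve of all after scaling. As deposited, Plekhg5-deficient 5 was the lowest. Mean Rela was 20.4 ± 2.92 FPKM without and 17.7 ± 0.458 FPKM with the deficiency (SD, n = 3 each), and the log2 fold change was -0.19 (SE 0.17, 95% interval -0.59 to 0.21, adjusted p = 0.974 in limma). After scaling, the Plekhg5-deficient nerves lay close together for this gene, with a coefficient of variation of 2.60%, against 14.3% in the wild-type nerves. As deposited they did not, at 18.8, 19.1 and 13.2 FPKM, against 18.7, 25.1 and 21.5 FPKM in the wild-type nerves.

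Nfkb1, the precursor of the p50 subunit, lies on chromosome 3 from 135584655 to 135691547. The wild-type libraries gave 19.7, 25.1 and 19.7 FPKM for it, and the deficient libraries gave 20.2, 14.7 and 19.1 FPKM. Here wild-type 4 was high and Plekhg5-deficient 3 was low, and the other 4 nerves were nearly level after scaling. As deposited, Plekhg5-deficient 5 was the lowest, at 14.2 FPKM against 15.5 FPKM in Plekhg5-deficient 3. For Nfkb1 the log2 fold change was -0.25 (SE 0.19, 95% interval -0.71 to 0.22, adjusted p = 0.974). Rel, a subunit best known from lymphocytes and myeloid cells, lies on chromosome 11 from 23741514 to 23770970 and was the rarest of the 10. Rel reached 0.433, 0.809 and 1.01 FPKM in wild-type libraries, compared with 0.685, 0.510 and 0.597 FPKM in deficient libraries. After scaling, the lowest and the highest value were both from wild-type nerves. As deposited, Plekhg5-deficient 5 was the lowest (0.445 FPKM, against 0.474 FPKM in wild-type 2). The 95% intervals within a library reached 32.1% to 41.9% of the value to either side. The log2 fold change of Rel was -0.12 (SE 0.17, 95% interval -0.52 to 0.28, adjusted p = 0.980).

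The subunits of the non-canonical branch were both highest in wild-type 5. Nfkb2, the precursor of p52, lies on chromosome 19 from 46304737 to 46312090, shortly after the matched bases of the first 2 sites printed above. Wild-type 2, 4 and 5 gave 2.68, 2.80 and 5.54 FPKM, while Plekhg5-deficient 2, 3 and 5 gave 2.33, 2.40 and 3.86 FPKM. After scaling, both nerves numbered 5 were above the other 4, which lay close together. As deposited, Plekhg5-deficient 5 was at 2.88 FPKM, below wild-type 2 (2.94 FPKM) and wild-type 4 (3.13 FPKM). Its log2 fold change was -0.24 (SE 0.30, 95% interval -0.96 to 0.47, adjusted p = 0.978) with all nerves and 0.016 without wild-type 5. The locus overlaps Psd on the opposite strand, with 299 of 4584 exonic bases shared in the annotation, and no source used here gives the strand setting of the quantification.

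Relb lies on chromosome 7 from 19606217 to 19629438 and had the lowest estimate of the 10. Its FPKM were 2.41, 3.18 and 4.57 in wild-type libraries, compared with 2.92, 1.41 and 2.33 in deficient libraries. Wild-type 5 was the highest and Plekhg5-deficient 3 the lowest, and wild-type 2 lay among the Plekhg5-deficient nerves. The mean in Plekhg5-deficient nerves was 0.656 of that in wild-type nerves (2.22 ± 0.759 against 3.39 ± 1.09 FPKM, SD, n = 3 each), and the log2 fold change of -0.44 did not pass the test (SE 0.28, 95% interval -1.11 to 0.22, adjusted p = 0.974).

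Nfkbia, the inhibitor that retains Rela and Rel dimers, lies on chromosome 12 from 55489411 to 55492647 and had the largest standard deviation of log2(FPKM + 1) over the 6 nerves among the members. The FPKM of Nfkbia were 27.5, 44.8 and 43.7 in wild-type 2, 4 and 5, compared with 23.0, 26.5 and 65.9 in Plekhg5-deficient 2, 3 and 5. Plekhg5-deficient 2 and 3 were below all wild-type nerves, and Plekhg5-deficient 5 was above all of them after scaling, which divided its values by 0.745. As deposited, Plekhg5-deficient 5 (49.0 FPKM) was slightly below wild-type 4 (50.1 FPKM). The genotypes had nearly equal means of 38.7 ± 9.67 and 38.5 ± 23.8 FPKM (SD, n = 3 each), with a far wider spread under the deficiency. The 95% interval within a library reached only 5.31% to 7.94% of the value, far less than the distance between the nerves. The log2 fold change of Nfkbia was -0.14 (SE 0.42, 95% interval -1.15 to 0.88, adjusted p = 0.994). Without Plekhg5-deficient 5, the nerve with the highest haemoglobin and muscle level, it was -0.60 with an adjusted p of 0.803 in limma. The part of blood and muscle in the level of Nfkbia was not tested.

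Tnfaip3, a deubiquitinase that ends signaling to the kinase complex, lies on chromosome 10 from 19000910 to 19015657. Tnfaip3 reached 1.73, 1.78 and 3.18 FPKM in wild-type libraries, compared with 1.73, 1.64 and 1.95 FPKM in deficient libraries. Wild-type 5 was again above the rest, and the other 5 nerves were close to each other across the genotypes. Tnfaip3 had a log2 fold change of -0.19 (SE 0.22, 95% interval -0.73 to 0.34, adjusted p = 0.976) and of 0.00088 without wild-type 5. Thus the feedback inhibitors were highest in different nerves, Nfkbia in Plekhg5-deficient 5 after scaling and Tnfaip3 in wild-type 5.

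Of the kinase complex, Chuk (IKKα), on chromosome 19 from 44073335 to 44107480, had the highest estimate of the 10. Wild-type libraries gave 9.48, 10.4 and 9.50 FPKM, and deficient libraries gave 15.1, 10.5 and 9.92 FPKM. Only Plekhg5-deficient 2 was clearly above the rest, and the other nerves lay within a narrow range. The log2 fold change was 0.23 (SE 0.20, 95% interval -0.26 to 0.71, adjusted p = 0.974), and without Plekhg5-deficient 2 it was 0.048.

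Ikbkb (IKKβ), on chromosome 8 from 22659212 to 22706589, reached 8.05, 8.40 and 13.6 FPKM in wild-type libraries, compared with 8.65, 7.44 and 11.4 FPKM in deficient libraries. As for Nfkb2, both nerves numbered 5 were the highest after scaling. As deposited, Plekhg5-deficient 5 was at 8.46 FPKM, below wild-type 2 (8.82 FPKM), wild-type 4 (9.39 FPKM) and Plekhg5-deficient 2 (9.45 FPKM). Its log2 fold change was -0.10 (SE 0.26, 95% interval -0.72 to 0.52, adjusted p = 0.990), and 0.11 without wild-type 5. Ikbkg, on chromosome X from 74393290 to 74453854, reached 6.22, 4.63 and 4.10 FPKM, compared with 5.29, 5.10 and 4.55 FPKM under the deficiency. For this scaffold the nerves numbered 5 were the lowest, a pattern found for 19% of all genes tested. Mean Ikbkg was nearly the same in wild-type (4.99 ± 1.10 FPKM) and deficient libraries (4.98 ± 0.384 FPKM, SD, n = 3 each), with a 95% interval of the log2 fold change from -0.47 to 0.50. Ikbkg shares 418 of 8110 exonic bases with G6pdx on the opposite strand, whose mean was 36.9 FPKM, and whether reads of G6pdx reached Ikbkg was not tested.

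Which nerve was highest or lowest varied from member to member. Wild-type 5 was the highest nerve for 5 of the 10 (Nfkb2, Rel, Relb, Tnfaip3 and Ikbkb), as it was for 21.1% of all genes tested. After scaling, Plekhg5-deficient 3 was the lowest for 4, and the share of all genes for which it was lowest was not computed. As deposited, Plekhg5-deficient 5 was below it for Nfkb1 (14.2 against 15.5 FPKM) and Tnfaip3 (1.45 against 1.73 FPKM). The median deviation of the 10 genes from their own means was 0.27 on the log2 scale in wild-type 5, -0.23 in Plekhg5-deficient 3, -0.15 in wild-type 2 and within 0.05 of 0 in the other 3 nerves. For 3 members (Nfkb2, Tnfaip3 and Ikbkb) both nerves numbered 5 were the highest pair after scaling, a pattern found for 15.3% of all genes tested. In FPKM as deposited, Plekhg5-deficient 5 was below both wild-type 2 and wild-type 4 for each of these members.

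Marker genes of other cells moved with these nerves. The summed level of 12 macrophage markers was 724 FPKM in wild-type 5 and 786 FPKM in Plekhg5-deficient 5, and between 313 and 383 FPKM in the other 4, with none of the 12 at 0 in any nerve. T-cell and B-cell markers were high in wild-type 5 alone, as given above, and in Plekhg5-deficient 5 the T-cell markers summed to 10.8 FPKM. The list for lymph node stroma with dendritic cells summed to 368 FPKM in wild-type 5 and 199 FPKM in Plekhg5-deficient 5, and to between 29.9 and 46.7 FPKM elsewhere, and 1 of these 8 genes was at 0 in at least one nerve. After scaling, endothelial markers were highest in the nerves numbered 5 as well (217 and 222 FPKM, against 107 to 180 FPKM). Markers of myelinating Schwann cells summed to 12136 and 11401 FPKM in the nerves numbered 5 and to 10678 FPKM in wild-type 2, but to between 18942 and 19385 FPKM in the other 3. Plekhg5-deficient 3 was the lowest nerve for skeletal muscle (279 FPKM), erythroid (3975 FPKM) and endothelial markers (107 FPKM). The part of these cells in the levels of the members was not tested. Without wild-type 5, 6 of the 10 log2 fold changes were below 0, and without both nerves numbered 5 it was 9 of 10, with no member at an unadjusted p under 0.05 in either case.

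**Figure D3:**
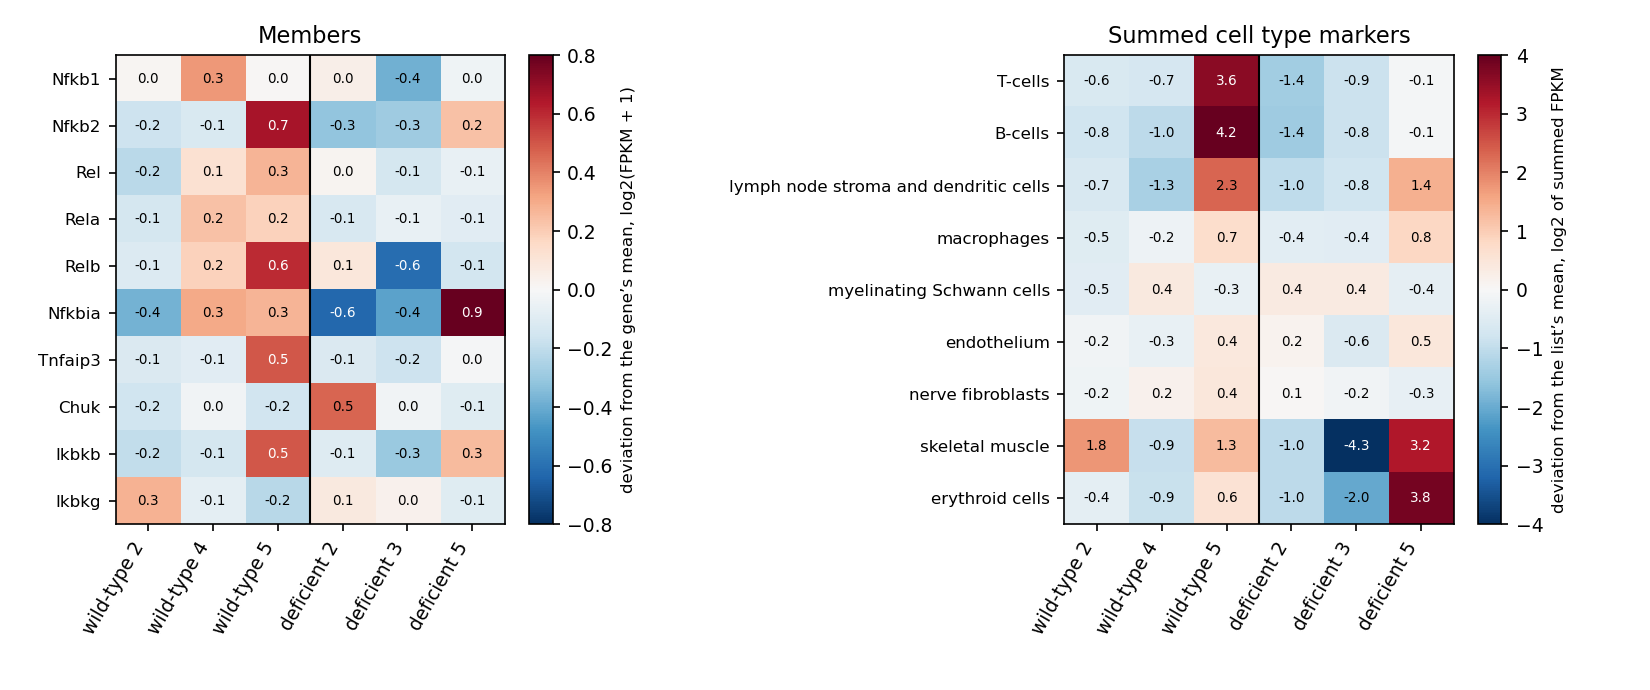
Deviation of each nerve from the mean over the 6 nerves, for the 10 genes (left, log2 of FPKM + 1) and for the summed FPKM of 9 lists of cell type markers (right, log2), with a colour scale of its own for each panel. Wild-type 5 is high for Nfkb2 (0.66), Relb (0.60), Tnfaip3 (0.50) and Ikbkb (0.50) and for T-cell and B-cell markers. Plekhg5-deficient 5 is the highest nerve for Nfkbia (0.85) and for erythroid and muscle markers.

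Ratios between members within a nerve do not depend on how the libraries were scaled, and 4 were compared. The ratio of the inhibitor Nfkbia to its partner Rela was 1.62, 1.99 and 2.02 in wild-type nerves 2, 4 and 5 and 1.34, 1.47 and 3.72 in Plekhg5-deficient nerves 2, 3 and 5. Plekhg5-deficient 2 and 3 were again below and Plekhg5-deficient 5 above the wild-type nerves. The ratio of Nfkb2 to Nfkb1, the precursors of the non-canonical and the canonical branch, was 0.136, 0.112 and 0.281 against 0.115, 0.163 and 0.203, highest in both nerves numbered 5. Rel made up a small part beside Rela in every nerve, with ratios of 0.0254, 0.0360 and 0.0466 against 0.0399, 0.0282 and 0.0338. The ratio of the kinases, Ikbkb to Chuk, was 0.850, 0.806 and 1.44 against 0.572, 0.712 and 1.15, so that Ikbkb exceeded Chuk in the nerves numbered 5 and in no other. The mean log2 ratios differed between the genotypes by 0.05 (SE 0.48), -0.05 (SE 0.47), -0.06 (SE 0.29) and -0.36 (SE 0.40) in this order. In two-sided exact permutation tests with n = 3 each, p was 1, 1, 0.9 and 0.4, all with an adjusted p of 1 over the 4 ratios, and the smallest p that 3 against 3 nerves allow is 0.1.

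**Figure D4:**
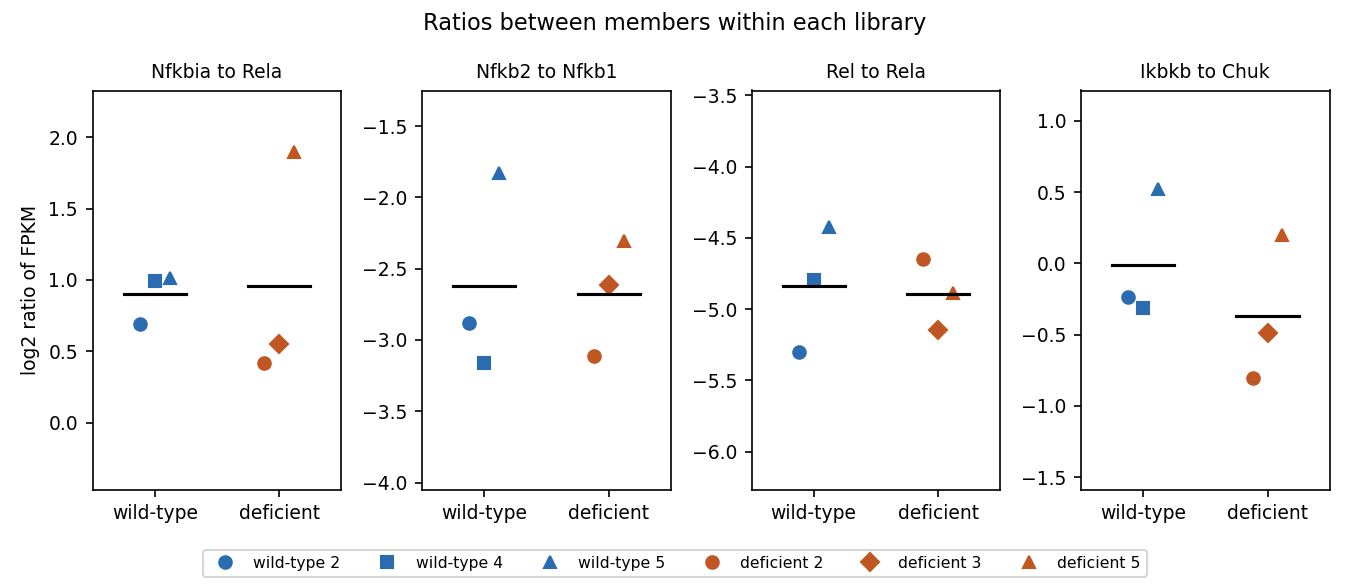
Log2 ratio of FPKM between pairs of members within each nerve (y axis, the same span in each panel but another offset), with one symbol for each number of a nerve and the mean of each genotype as a line. Nfkbia over Rela is highest in Plekhg5-deficient 5 (3.72 on the linear scale), and Nfkb2 over Nfkb1 and Ikbkb over Chuk are highest in wild-type 5 (0.281 and 1.44).

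For Rel, Relb, Nfkb2, Nfkbia and Tnfaip3, the genes with the most similar profile over the 6 nerves were sought among the genes with mean FPKM of 1 or more. Likeness was the root mean square difference of the centred log2 values, which is a description over 6 nerves. Nfkbia was most like Dusp1 (0.131), Zfp36 (0.137) and Egflam (0.154), where its own root mean square deviation was 0.518. Dusp1, a phosphatase of MAP kinases, reached 17.6, 28.7 and 28.8 FPKM, compared with 15.9, 16.5 and 34.2 FPKM under the deficiency. Zfp36, a protein that destabilizes mRNAs, reached 26.1, 46.2 and 43.9 FPKM, compared with 27.3, 26.2 and 56.6 FPKM. Both share with Nfkbia the high value in Plekhg5-deficient 5 and the low values in wild-type 2 and Plekhg5-deficient 2 and 3. Relb was most like Crispld2 (0.0903), Zhx3 (0.0920) and Mycl (0.0931), and Nfkb2 was most like Ccdc23 (0.0669), BC028528 (0.0672) and Neurl3 (0.0684). The nearest genes were Krba1 (0.0484), Taf1c (0.0536) and Trim56 (0.0558) for Tnfaip3, and Smarcc2 (0.0323), Rp2h (0.0355) and Lrch1 (0.0361) for Rel.

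The wider pathway was examined with 8 lists of 106 genes, of which 104 were tested. Traf1, Nfkbie and other feedback genes were counted in more than 1 list. The lists were chosen with earlier results of these data known. None of the 104 was called in limma, and 7 had an unadjusted p under 0.05, which is 6.73% beside 5.11% of all genes. The genotypes did not overlap for 14 (13.5%, beside 11.6% of all genes). Their median log2 fold change was -0.12, and 43 of them (41.3%, beside 21.1% of all genes) were highest in wild-type 5.

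Of the 5 other IκB proteins, Nfkbie did not overlap between the genotypes. Its wild-type FPKM were 2.53, 2.52 and 5.12, and those under the deficiency were 2.10, 2.22 and 1.41 (log2 fold change -0.55, SE 0.28, adjusted p = 0.974, and -0.30 without wild-type 5). Nfkbib (log2 fold change -0.14) and the nuclear coactivator Bcl3 (-0.28) overlapped. Of the 12 upstream and IKK-related kinases and their partners, the median was 0.05 and Map3k3, a kinase upstream of the IKK complex, was lower without overlap (4.78, 6.19 and 7.39 against 4.03, 3.42 and 4.28 FPKM, log2 fold change -0.52, adjusted p = 0.972). Tbkbp1, an adaptor of TBK1, was also lower without overlap (2.79, 2.65 and 3.51 against 1.77, 2.15 and 2.18 FPKM). Azi2, another adaptor of this kinase, was the one that was higher without overlap after scaling (22.6, 26.2 and 26.0 against 30.4, 28.3 and 31.7 FPKM, log2 fold change 0.26). In FPKM as deposited the genotypes overlapped for Azi2, and its log2 fold change was 0.10.

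Of the 16 receptor adaptors, 15 had a log2 fold change below 0, with a median of -0.22 and of -0.17 without wild-type 5, and none was called. Traf1, an adaptor of TNF receptors that is itself a target of NF-κB, was the one without overlap. Its wild-type FPKM were 2.69, 4.83 and 9.66, and those under the deficiency were 1.55, 1.77 and 1.46. Each wild-type nerve was above each Plekhg5-deficient nerve, with wild-type 5 far above the rest. The log2 fold change of Traf1 was -1.24 (SE 0.38, adjusted p = 0.843), and -0.85 without wild-type 5. The adaptor kinase Irak1 had a log2 fold change of -0.42 with overlap.

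The 12 ubiquitin ligases and deubiquitinases, among them Sharpin and Rbck1 of the linear ubiquitin complex, had a median of -0.0058 and no gene without overlap. The same held for the 6 genes of the CARD-Bcl10-Malt1 complex, with a median of -0.06. Of the 15 receptors, 8 were highest in wild-type 5, and the median log2 fold change moved from -0.26 to -0.01 when that nerve was left out. Ltbr, the lymphotoxin β receptor upstream of the non-canonical branch, did not overlap (16.7, 16.6 and 17.6 against 14.5, 13.6 and 13.7 FPKM, log2 fold change -0.27, SE 0.14). Of the 11 ligands, Il18 was higher without overlap after scaling. In FPKM as deposited the genotypes overlapped for Il18, with a log2 fold change of 0.58. Its wild-type FPKM were 5.73, 3.72 and 3.37, and those under the deficiency were 6.19, 8.45 and 8.18 (log2 fold change 0.72, SE 0.24, adjusted p = 0.896).

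Over the 31 target genes the median log2 fold change was -0.28, or -0.15 without wild-type 5, and 15 of them were highest in that nerve. For 8 the Plekhg5-deficient nerves were all below the wild-type nerves, where this held for 5.88% of all genes. For 1, the survival gene Bcl2l1, they were all above after scaling, as for 5.69% of all genes. In FPKM as deposited the genotypes overlapped for Bcl2l1, and its log2 fold change was 0.19. None of the 31 was called, and 5 were lower with an unadjusted p under 0.05 in limma, beside 2.69% of all genes. The list was chosen with earlier results of these data known, so these counts are a description and not a test of target genes. Ccnd1, cyclin D1, reached 17.8, 23.5 and 19.0 FPKM in wild-type libraries, compared with 12.7, 11.9 and 9.12 FPKM in deficient libraries (log2 fold change -0.79, SE 0.20, adjusted p = 0.678). Irf1, a transcription factor of the interferon response, reached 31.5, 12.7 and 18.6 FPKM, compared with 8.74, 8.31 and 8.55 FPKM (log2 fold change -1.11, SE 0.31, adjusted p = 0.771). Irf1 was highest in wild-type 2, and its log2 fold change was -0.77 without that nerve and -1.16 without wild-type 5. For Ccnd1 it was -0.85 without wild-type 2 and -0.83 without wild-type 5. The other genes below without overlap, named here after their values had been seen, were Csf1, Mmp9, Ccl22 and Ptgs2 beside Traf1 and Nfkbie. Ptgs2 stayed under 0.21 FPKM in every nerve, and Ccl22 was at 13.5 FPKM in wild-type 5 and under 0.82 FPKM elsewhere. Lcn2, an antimicrobial protein, was highest in Plekhg5-deficient 5 (96.4 FPKM, against 14.3 to 35.3 FPKM in the others).

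**Figure D5:**
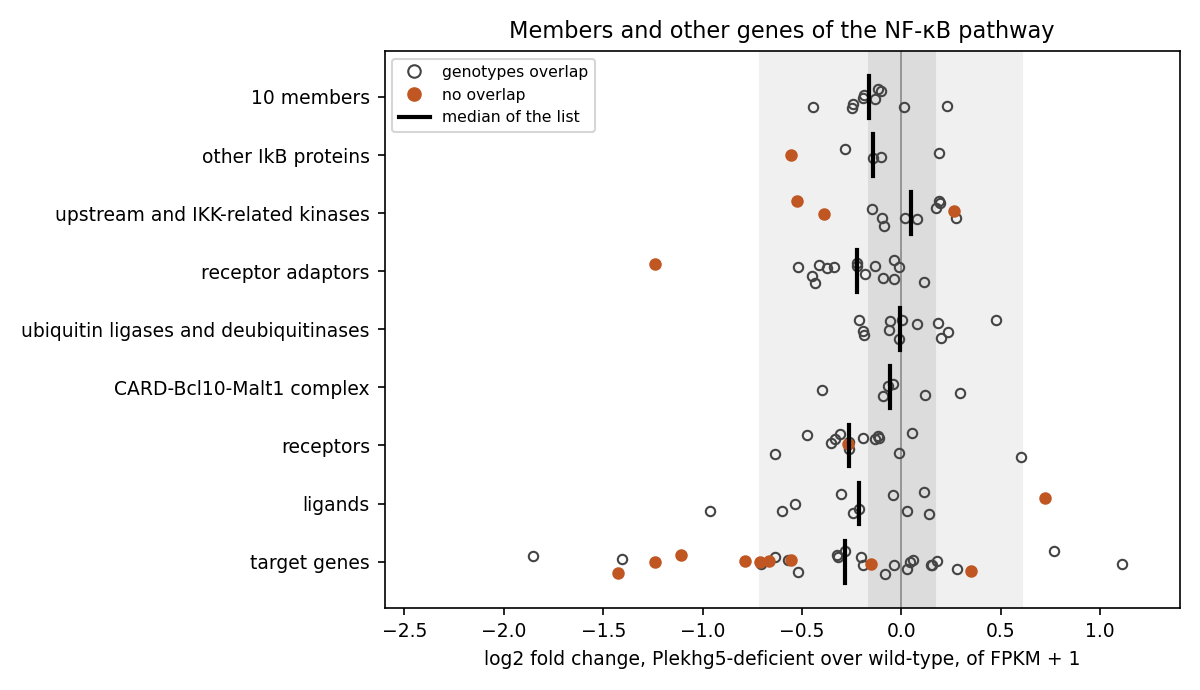
Log2 fold change of Plekhg5-deficient over wild-type nerves (x axis) for each of the 10 members and each tested gene of 8 lists (rows), with filled points for genes whose genotypes do not overlap, a line for the median of a list and shaded bands for the quartiles and the middle 95% of all genes tested. No member is filled, while 9 of 31 target genes are, 8 of them below 0. Overlap was judged on scaled FPKM.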

How the data were processed

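Total RNA of 6 whole sciatic nerves was sequenced by the authors from libraries of a strand-specific mRNA kit. Reads were trimmed with Trim Galore 0.4.0 and mapped to GRCm38 with STAR, and the deposited FPKM with 95% intervals were estimated per gene and library with Cufflinks 2.2.1. The sources used here give no counts and no read depth, so that no detection limit was computed.

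A gene was kept if its mean in one of the genotypes was 0.1 FPKM or more. Libraries were scaled by median-of-ratios factors (0.745 to 1.12). A model with a genotype term was then fitted to log2(FPKM + 1) in limma 3.58.1 (R 4.3.3), using a trended variance, and p-values were adjusted over 21285 genes by the method of Benjamini and Hochberg. Fold changes on this scale understate those of low genes such as Rel. The threshold for a call was an adjusted p of 0.05. The study compared the genotypes with Cufflinks on the reads, and its own comparison was not used. The script was tested on simulated data.

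Named genes were the members, Plekhg5, for each list the 2 genes with the lowest p and the 2 with the highest mean, and the 3 nearest profiles for 5 members. Genes without overlap that this rule did not cover were named after their values were seen. The members, lists and motif forms were chosen with earlier results of these data known, and the motif forms after several had been tried. Other pseudocounts, filters, scalings, variance models, libraries left out and a replicate block were tried.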

Additional observations from a re-analysis of the deposited data

How the results depend on the processing

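Under 18 alternatives none of the 10 members was called (smallest adjusted p 0.433 in limma, for Chuk with array weights, log2 fold change 0.44), and 163 of 179 values kept their direction. With FPKM as deposited, the median of all genes moved to -0.094 and that of the members to -0.30, genes with p under 0.05 split into 753 lower and 239 higher (573 and 514 after scaling), and Ikbkg (-0.12), Bcl10 (-0.033) and Il33 (-0.14) turned below 0. Over all genes, 2 were called lower and 6 higher. The lower calls were 1 with a pseudocount of 0.1, a minimum of 1 FPKM or robust variance, 8 with array weights (14 higher), 0 without both nerves numbered 5, and 0 with no filter (0 higher). The numbers 2 and 5 occur in both genotypes (r of deviations 0.073 and 0.58), but no source says that they pair animals. With a replicate block over these 4 nerves 0 genes were called lower and 2 higher, and without the block 0 and 0. In both of these fits Nfkbia (0.16), Tab2 (0.064), Irak3 (0.094), Card10 (0.037) and Tnfrsf1a (0.056) were above 0 and Ikbkg was below (-0.047). Ikbkg was at -0.055 without both nerves numbered 5, and Sharpin at -0.017 with array weights. Leaving out 1 nerve at a time gave 0 to 0 genes called lower and 0 to 5 higher, and a median of the members from -0.29 to -0.029. The log2 fold changes then ran from -0.43 to 0.016 for Nfkb2, -0.60 to 0.14 for Nfkbia, -0.29 to 0.00088 for Tnfaip3, -0.26 to 0.11 for Ikbkb, -0.10 to 0.16 for Ikbkg, -0.55 to 0.082 for Bcl3, -0.26 to 0.011 for Tab2, -0.32 to 0.089 for Irak3, -0.051 to 0.57 for Card9, -0.19 to 0.067 for Card10, -0.90 to 0.41 for Ngfr and -0.080 to 0.18 for Il33. The differences in log2 ratio ran from -0.42 to 0.32 for Nfkbia to Rela, -0.32 to 0.34 for Nfkb2 to Nfkb1 and -0.29 to 0.15 for Rel to Rela. Without both nerves numbered 5 they were -0.36, 0.16 and 0.15, and with a pseudocount of 1 in both genes 0.0040 for Nfkb2 to Nfkb1 and 0.069 for Rel to Rela. The cause of these turns was not tested. Plekhg5 lost its call with no filter, over the 4 nerves numbered 2 and 5 with or without the block, without both nerves numbered 5 and with any 1 nerve left out. The precision rests on 3 nerves a genotype: the standard errors of the members were 0.17 to 0.42, and the 95% intervals of Nfkbia and Relb reach -1.15 and -1.11.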
